A study of Mus musculus with 18 samples.

Results

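The genes described here are Cebpd, Fkbp5, Tsc22d3, Sgk1 and Klf9, which are known to respond to glucocorticoids, and the metallothionein genes Mt1 and Mt2. They were taken by gene symbol from the platform annotation of a mouse expression array. The 7 genes are 7 of the 12393 genes with a probe set of their own, and they are measured by 18 of the 22626 tested probe sets, the groups of short probes that give the array's values. The rule goes by gene name, and the names were chosen with earlier results of these data known.

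The samples were soleus, a calf muscle rich in slow fibres, and extensor digitorum longus (EDL), a fast muscle, of male C57BL/N6 mice 19 to 20 weeks of age (given as C57/BL6 in the sample labels). BF mice were flown for 30 days on the BION-M1 biosatellite. FC mice are the flight control of the labels, kept in an animal facility on standard chow. BG mice are the ground control, kept in a replica of the flight habitat on the paste food that BF mice also had. BF mice were transferred to the laboratory 12 to 14 hours after landing, so food, housing, flight and landing cannot be told apart between BF and FC, nor flight and landing between BF and BG. Each muscle had 3 arrays of BF, 3 of FC and 3 of BG, 18 in all. The labels do not say whether a soleus and an EDL array of the same number came from the same mouse. Values are log2 signals, so a difference of 1 is a 2-fold change. A change is called where limma's p, adjusted over all 22626 probe sets, is under 0.05, and fold changes are followed by their standard error. A gene is given by its brightest probe set unless another is named, and levels of different genes are not compared.

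As background, corticosterone, the main glucocorticoid of rodents, enters cells and binds the glucocorticoid receptor Nr3c1, which then binds DNA at short palindromic sites and raises or lowers nearby genes. In skeletal muscle the hormone is known for shifting the balance from protein synthesis to breakdown during stress and fasting. Metallothioneins are small cysteine-rich proteins that bind zinc and copper; zinc raises them through the factor Mtf1 acting on metal response elements, and glucocorticoids raise them too.

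The start sites of 6 of the 7 genes were covered by windows of 250 bases before and 50 bases after the start (RefSeq, GRCm38.p6), 13 windows in all, with none for Cebpd. Searches were made on both strands for the full glucocorticoid response element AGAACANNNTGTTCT, for its arm TGTTCT, and for the core of the metal response element, TGCACNC or TGCGCNC. Each full element holds an arm on either strand. The full element lay in 1 of 6 windows of Sgk1 and in no window of the others, and among all 32851 windows it lay in 3, or 0.00913%. The arm lay in 19% of all windows, and here in 1 of the 3 windows of Tsc22d3 and 3 of the 6 of Sgk1. The metal core lay in 25.7% of all windows. It matched 3 times in the Mt1 window and 4 times in the Mt2 window, and 0.517% of all windows held 4 or more. A match is a run of letters and not a shown binding site, and no match says only that these letters are not in that window. The metallothionein windows, with the metal cores in capitals, and the Sgk1 window, with the full element in capitals, are printed because they hold the most metal cores among the 7 genes and the only full element.

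Mt1 (chr8:94178839-94179138, plus strand): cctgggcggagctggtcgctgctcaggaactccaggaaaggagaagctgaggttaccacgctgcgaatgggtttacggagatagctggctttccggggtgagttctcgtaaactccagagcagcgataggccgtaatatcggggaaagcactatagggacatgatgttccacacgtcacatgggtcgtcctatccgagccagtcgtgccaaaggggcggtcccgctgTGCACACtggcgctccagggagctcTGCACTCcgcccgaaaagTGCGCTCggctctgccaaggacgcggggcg
Mt2 (chr8:94172368-94172667, plus strand): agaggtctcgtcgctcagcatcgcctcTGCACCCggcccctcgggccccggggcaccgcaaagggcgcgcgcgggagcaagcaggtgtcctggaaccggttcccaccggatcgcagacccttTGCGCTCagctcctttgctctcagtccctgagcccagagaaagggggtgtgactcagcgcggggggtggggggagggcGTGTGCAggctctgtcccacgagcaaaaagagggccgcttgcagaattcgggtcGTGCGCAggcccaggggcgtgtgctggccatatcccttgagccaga
Sgk1 (chr10:21993640-21993939, plus strand): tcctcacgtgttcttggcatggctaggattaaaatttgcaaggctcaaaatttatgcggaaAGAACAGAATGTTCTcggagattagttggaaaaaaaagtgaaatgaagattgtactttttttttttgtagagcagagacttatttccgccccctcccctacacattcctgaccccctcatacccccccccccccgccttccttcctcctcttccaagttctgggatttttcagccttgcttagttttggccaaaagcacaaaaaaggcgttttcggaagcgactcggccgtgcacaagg

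In soleus, Cebpd, Fkbp5 and Mt2 were higher in BF than in BG, and Cebpd, Fkbp5, Mt1 and Mt2 were higher in BF than in FC, by 2.04- to 4.24-fold. Thus 3 of the 7 genes were called higher in BF vs. BG, where 11.1% of all genes were, and none was called lower, where 12.3% were. In BF vs. FC 4 were called higher, where 9.02% of all genes were. Klf9 was called lower in BF vs. FC, as were 16% of all genes. The median change of the 7 genes was 0.61 in BF vs. BG and 1.03 in BF vs. FC, beside 0.03 and -0.00 over all genes. The 2 comparisons share the BF arrays.

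In EDL the same direction was found against FC. Cebpd, Fkbp5 and Mt1 were higher in BF than in FC, 3 of the 7 genes, where 1.02% of all genes were called higher. No gene of the 7 was called lower, where 2.52% of all genes were. Between BF and BG in EDL limma called 0 of the 7 genes, 2 of which had an unadjusted p under 0.05, and the ordinary contrasts of the same model called 0. Few genes passed there at all, 0.266% higher and 0.113% lower. All 3 BF arrays lay above all 3 control arrays in 4 of the 7 genes in soleus against BG, in 4 in soleus against FC, in 3 in EDL against BG and in 4 in EDL against FC. The shares of all genes with that order were 21.1%, 15.7%, 6.78% and 9.8%, in the same sequence of comparisons.

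**Figure D1:**
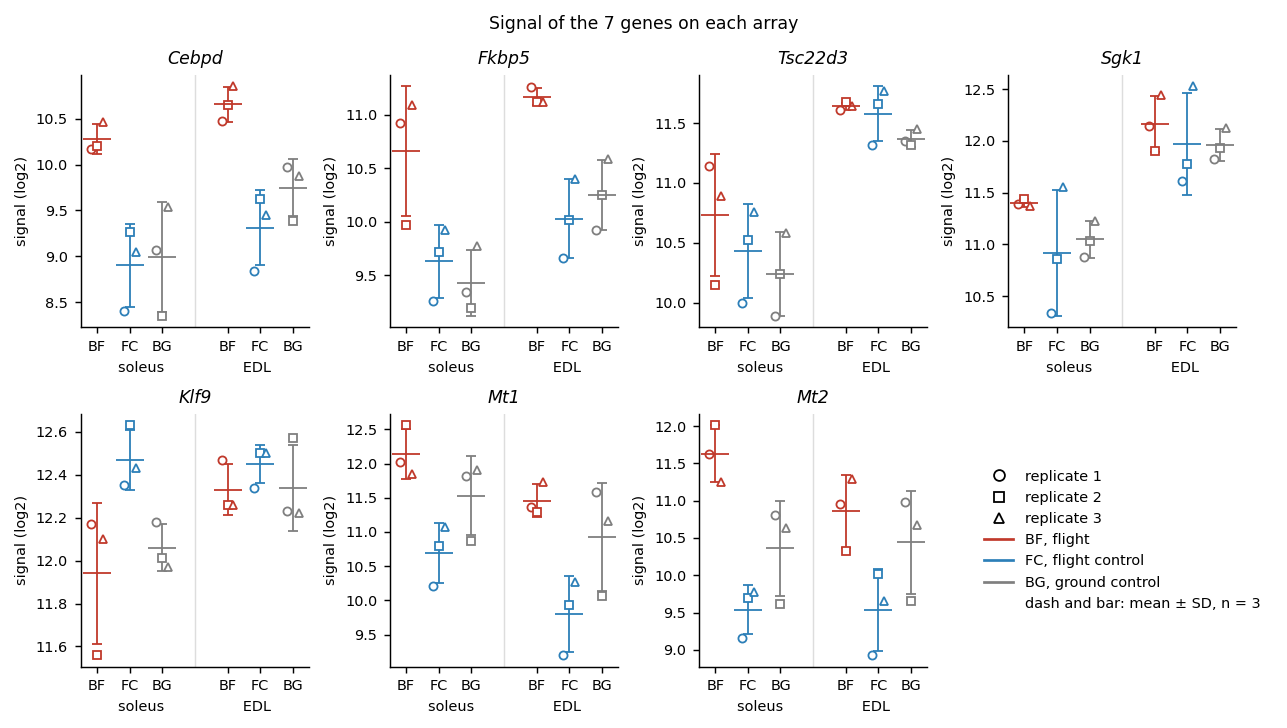
The panels plot the log2 signal of each gene's brightest probe set (y axis) on each array, in soleus (left) and EDL (right), with BF, FC and BG side by side. Symbols stand for the replicate number, and the dash and bar give the mean and SD of 3 arrays. The BF arrays of Cebpd lie above all control arrays of the same muscle, and replicate 1 is the lowest FC array in every panel and muscle.

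Cebpd encodes C/EBP delta, a leucine zipper transcription factor of stress and acute phase responses. In soleus its signals were 10.17, 10.21 and 10.47 in BF, against 8.40, 9.26 and 9.05 in FC and 9.07, 8.35 and 9.54 in BG. In EDL they were 10.48, 10.65 and 10.86 in BF, against 8.84, 9.63 and 9.45 in FC and 9.97, 9.39 and 9.88 in BG. Every BF array was thus above every control array of its muscle. The change in soleus was 1.38 ± 0.27 against FC (2.6-fold, limma, adjusted p = 0.00173) and 1.30 ± 0.27 against BG (2.45-fold, adjusted p = 0.00338). In EDL it was 1.36 ± 0.27 against FC (adjusted p = 0.0121) and 0.92 ± 0.27 against BG, which did not pass (adjusted p = 0.182). The call against FC in EDL ended without BF EDL replicate 3, at 1.26 (adjusted p = 0.0513). Its dimmer probe set, 1456605_at, near the middle of all signals at 6.22 on average, was called in none of these comparisons and had its highest value, 0.48 ± 0.14, in EDL against FC (adjusted p = 0.0647).

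Fkbp5 encodes FKBP51, a co-chaperone of HSP90 that lowers the hormone affinity of the glucocorticoid receptor and is itself raised by the receptor. In soleus its signals were 10.92, 9.97 and 11.09 in BF, against 9.26, 9.72 and 9.92 in FC and 9.34, 9.19 and 9.77 in BG. The lowest BF array, replicate 2, was only just above the highest FC array. In EDL the 3 BF arrays, at 11.26, 11.12 and 11.12, lay above FC at 9.66, 10.02 and 10.40 and above BG at 9.92, 10.25 and 10.59. Fkbp5 was higher in BF soleus by 1.03 ± 0.27 against FC (adjusted p = 0.00952) and by 1.23 ± 0.27 against BG (adjusted p = 0.00389). In EDL the difference was 1.14 ± 0.27 against FC (adjusted p = 0.0243) and 0.92 ± 0.27 against BG (adjusted p = 0.164). The EDL call ended in the ordinary contrasts (adjusted p = 0.0773) and without any 1 of BF EDL replicates 1, 2 and 3 or FC EDL replicates 1 and 2, with values of 0.95 to 1.16 (adjusted p = 0.0519 to 0.0902). A further probe set, 1448231_at, was called in the same 3 comparisons, with 0.95 ± 0.20 and 0.63 ± 0.20 in soleus against FC and BG and 0.95 ± 0.20 in EDL against FC (adjusted p = 0.00288, 0.0347 and 0.0159).

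Mt1 and Mt2 encode the metallothioneins found in most tissues, and both lie on chromosome 8. In soleus Mt2 had 11.62, 12.01 and 11.25 in BF, against 9.16, 9.69 and 9.78 in FC and 10.81, 9.62 and 10.64 in BG. Mt1 had 12.02, 12.56 and 11.85 in BF soleus, against 10.21, 10.79 and 11.08 in FC and 11.82, 10.87 and 11.91 in BG. For Mt2 all BF arrays were above both controls, whereas for Mt1 the BF and BG arrays overlapped. Mt2 was higher in BF soleus by 2.08 ± 0.37 against FC (4.24-fold, adjusted p = 0.000738) and by 1.27 ± 0.37 against BG (adjusted p = 0.0218). Mt1 was higher by 1.45 ± 0.37 against FC (adjusted p = 0.00832) and had 0.61 ± 0.37 against BG (95% interval -0.16 to 1.38, adjusted p = 0.243). The call of Mt2 against BG ended in the ordinary contrasts (adjusted p = 0.0589) and without BF soleus replicate 1 or 2 or BG soleus replicate 2, with values of 1.28, 1.08 and 0.90 (adjusted p = 0.0543, 0.0749 and 0.115).

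In EDL Mt1 had 11.36, 11.29 and 11.73 in BF, against 9.20, 9.93 and 10.27 in FC and 11.58, 10.06 and 11.16 in BG. Mt2 had 10.96, 10.33 and 11.29 in BF EDL, against 8.93, 10.01 and 9.66 in FC and 10.98, 9.66 and 10.68 in BG. Both genes had every BF array above every FC array, and both overlapped with BG. The change against FC was 1.66 ± 0.37 for Mt1 (3.16-fold, adjusted p = 0.0191) and 1.33 ± 0.37 for Mt2, just short of the threshold (adjusted p = 0.0552). Against BG the values were 0.53 ± 0.37 and 0.42 ± 0.37 (adjusted p = 0.612 and 0.715). The call of Mt1 ended in the ordinary contrasts (adjusted p = 0.0689) and without BF EDL replicate 3, FC EDL replicate 1 or FC EDL replicate 2, at 1.53, 1.36 and 1.73 (adjusted p = 0.0757, 0.0718 and 0.0553). It also ended with the mean of the probe sets of Mt1, at 0.88 (adjusted p = 0.0904). Mt2 passed in 6 of 29 alternatives, with array quality weights, with the filter on low signals, and without replicate 2 of BF or BG in either muscle (adjusted p = 0.00788 to 0.0434), and over all 29 the adjusted p ran from 0.00788 to 0.191. The Mt1 probe set, 1422557_s_at, is of a type that can read more than 1 transcript, so a part of its signal from a close relative such as Mt2 was not tested. A dimmer probe set of Mt1, 1451612_at, had 0.65 ± 0.34 in BF vs. FC in soleus (adjusted p = 0.176) and 0.09 ± 0.34 in EDL (adjusted p = 0.933).

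Tsc22d3 encodes GILZ, the glucocorticoid-induced leucine zipper protein, which restrains inflammatory signalling. Its brightest probe set had 11.14, 10.15 and 10.89 in BF soleus, against 10.00, 10.52 and 10.76 in FC and 9.89, 10.24 and 10.58 in BG, and the groups overlapped. The change was 0.30 ± 0.23 against FC and 0.49 ± 0.23 against BG (adjusted p = 0.372 and 0.131), and the lowest BF array, replicate 2, was below most control arrays. In EDL the signals were 11.61, 11.68 and 11.64 in BF, 11.32, 11.66 and 11.77 in FC and 11.35, 11.32 and 11.45 in BG, with the BF arrays above all BG arrays and overlapping with FC. The change there was 0.06 ± 0.23 against FC and 0.27 ± 0.23 against BG (adjusted p = 0.938 and 0.701). Another bright probe set, 1425281_a_at, had 10.66, 9.55 and 10.56 in BF soleus, against 8.69, 8.88 and 9.32 in FC and 9.20, 9.47 and 9.69 in BG. By that probe set Tsc22d3 was higher in BF soleus, by 1.29 ± 0.25 against FC and 0.80 ± 0.25 against BG (adjusted p = 0.00141 and 0.0294), and its EDL values of 0.70 ± 0.25 and 0.55 ± 0.25 did not pass (adjusted p = 0.141 and 0.401). The dimmest, 1425557_x_at, had 0.17 ± 0.15 and 0.22 ± 0.15 in soleus (adjusted p = 0.435 and 0.282). Probe sets with the ending a_at read several transcripts of a gene, and which of them each one reads was not tested. Without BF soleus replicate 2, the lowest of its group, the brightest probe set passed against BG, at 0.78 (adjusted p = 0.0165).

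Sgk1 encodes a serine kinase, related to Akt, that acts on the ubiquitin ligase Nedd4l and on ion transport. In soleus it had 11.39, 11.44 and 11.37 in BF, against 10.34, 10.86 and 11.55 in FC and 10.88, 11.03 and 11.23 in BG. The BF arrays were close together and above all BG arrays, and the FC arrays spread on both sides of them. In EDL the signals were 12.14, 11.90 and 12.44 in BF, 11.61, 11.78 and 12.53 in FC and 11.82, 11.93 and 12.12 in BG. No change was called, with 0.49 ± 0.25 against FC and 0.35 ± 0.25 against BG in soleus (adjusted p = 0.178 and 0.329, and 0.80 with adjusted p = 0.0244 against FC without FC soleus replicate 3), and 0.19 ± 0.25 and 0.21 ± 0.25 in EDL (adjusted p = 0.771 and 0.812). The full element printed above lies 189 to 175 bases before a start site of this gene.

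Klf9 encodes a Krueppel-like zinc finger factor and is raised by glucocorticoids in several tissues. Its brightest probe set, 1428289_at, had 12.17, 11.56 and 12.10 in BF soleus, against 12.35, 12.63 and 12.43 in FC and 12.18, 12.01 and 11.97 in BG. All BF arrays were below all FC arrays and overlapped with BG. The change was -0.53 ± 0.15 against FC (adjusted p = 0.0162) and -0.11 ± 0.15 against BG (adjusted p = 0.612). In EDL it had 12.47, 12.26 and 12.26 in BF, 12.34, 12.50 and 12.50 in FC and 12.23, 12.57 and 12.22 in BG, with overlapping groups and changes of -0.12 ± 0.15 and -0.01 ± 0.15 (adjusted p = 0.75 and 0.984). Of the 7 probe sets of Klf9, 6 had negative values against BG in soleus. Among them, 1422264_s_at and 1436763_a_at were lower in BF by 0.95 ± 0.22 and 0.76 ± 0.19 (log2 fold changes of -0.95 and -0.76, adjusted p = 0.00684 and 0.00984), while the only positive one, 1452723_at, was higher by 0.36 ± 0.11 (adjusted p = 0.0263). Its mean signal of 4.79 is at percentile 27.8 of all probe sets and was not shown to be above background. Against FC, 1456341_a_at was lower with -0.62 ± 0.15 (adjusted p = 0.00631), and no other than the brightest was called. The call of the brightest ended without BF soleus replicate 2 or FC soleus replicate 2, at -0.33 and -0.45 (adjusted p = 0.0825 and 0.0773), and the mean of the 7 probe sets had -0.23 (adjusted p = 0.157).

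**Figure D2:**
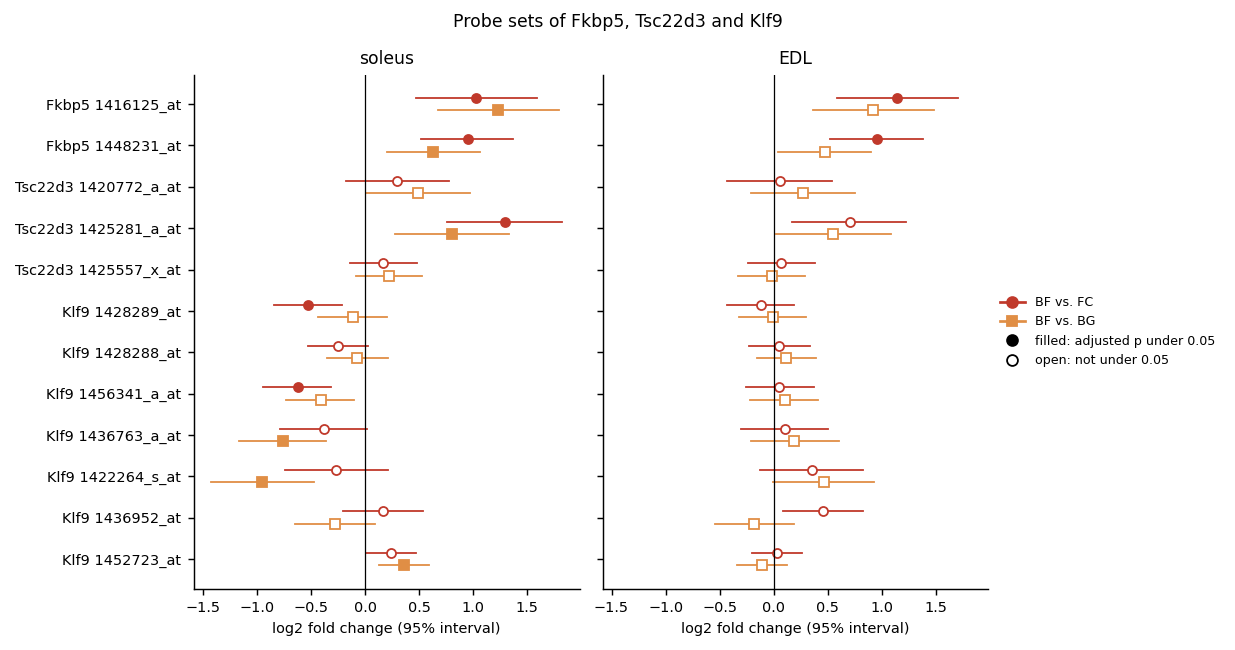
Each row is a probe set of Fkbp5, Tsc22d3 or Klf9, brightest first within a gene, and the x axis is the log2 fold change of BF against FC (circles) and BG (squares) in soleus and EDL, with 95% intervals. Filled symbols have an adjusted p under 0.05. The probe sets of Fkbp5 lie on the same side of 0, while those of Klf9 run from -0.95 to 0.36 in BF vs. BG in soleus, with only the dim 1452723_at above 0.

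Between the 2 control conditions limma called 0 of the 7 genes in either muscle, 3 of which had an unadjusted p under 0.05 in soleus and 2 in EDL, and the ordinary contrasts called 0. The share of all genes called in FC vs. BG was 9.8% in soleus and 0.0323% in EDL. The largest values were those of the metallothioneins, with Mt1 at -0.84 ± 0.37 in soleus and -1.13 ± 0.37 in EDL (adjusted p = 0.15 and 0.248) and Mt2 at -0.81 ± 0.37 and -0.91 ± 0.37 (adjusted p = 0.171 and 0.349). In all 4 cases the FC and BG arrays overlapped, through replicate 2 of BG. Klf9 had 0.41 ± 0.15 in soleus by its brightest probe set, with all FC arrays above all BG arrays (adjusted p = 0.0818). Its other probe sets were mixed there. Values were 0.21, 0.17 and 0.12 for 1456341_a_at, 1428288_at and 1452723_at, but -0.68, -0.45 and -0.37 for 1422264_s_at, 1436952_at and 1436763_a_at. All FC arrays lay below all BG arrays for 1422264_s_at and 1436952_at (adjusted p = 0.059 and 0.105). The mean of all its probe sets had -0.08.

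**Figure D3:**
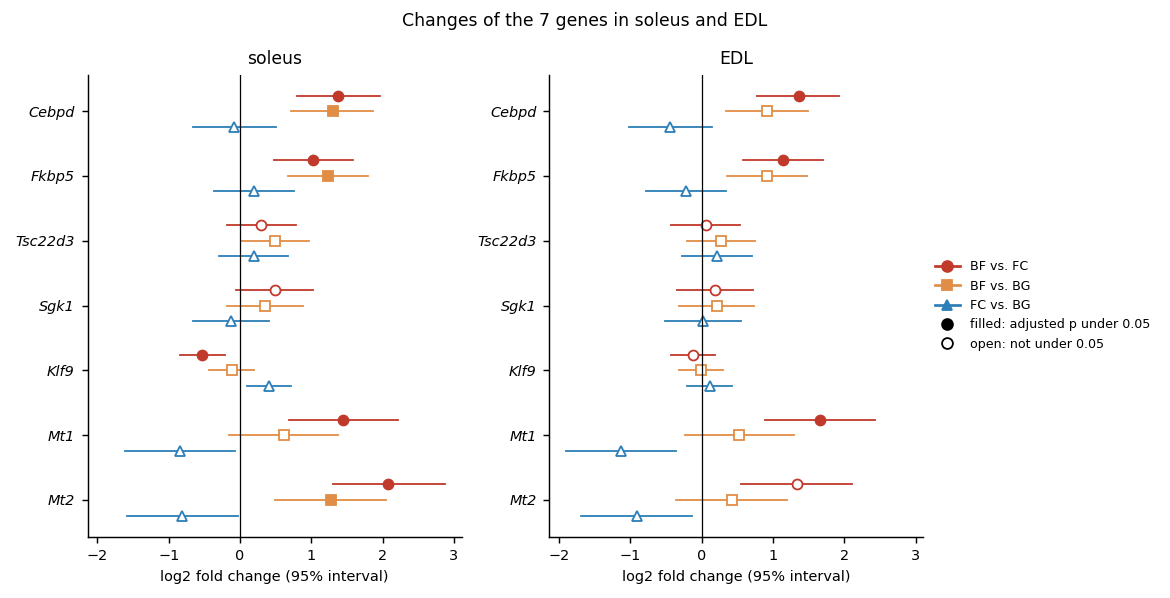
The x axis is the log2 fold change with its 95% interval for each of the 7 genes in soleus (left) and EDL (right), for BF vs. FC (circles), BF vs. BG (squares) and FC vs. BG (triangles). Filled symbols have an adjusted p under 0.05. Cebpd and Fkbp5 lie above 0 against each control in each muscle, and Mt1 and Mt2 lie below 0 in FC vs. BG.

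The difference between the muscles was tested as the BF change in soleus minus that in EDL. With limma 0 of the 7 genes passed for BF vs. BG and 0 for BF vs. FC, where 9.26% and 2.04% of all genes did. No gene of the 7 had an unadjusted p under 0.05 and the ordinary contrasts called 0. The intervals are wide. For Mt2 the difference was 0.85 (95% interval -0.25 to 1.96) against BG and 0.76 (-0.35 to 1.86) against FC, and for Cebpd it was 0.38 (-0.44 to 1.20) and 0.02 (-0.79 to 0.84).

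In FC mice the muscles themselves differed in 2 of the 7 genes, both lower in soleus than in EDL, where 8.4% of all genes were lower. Tsc22d3 had 10.00, 10.52 and 10.76 in FC soleus, against 11.32, 11.66 and 11.77 in FC EDL, a change of -1.16 ± 0.23 (adjusted p = 0.00229). Sgk1 had 10.34, 10.86 and 11.55 in FC soleus, against 11.61, 11.78 and 12.53 in FC EDL, a change of -1.06 ± 0.25 (adjusted p = 0.00838). The arrays of the 2 muscles did not overlap in either gene. Sgk1 was not called without FC soleus replicate 1 or without FC EDL replicate 3, with values of -0.77 and -0.78 (adjusted p = 0.0526 and 0.0573). Mt2 had 0.01 ± 0.37 in the same comparison (95% interval -0.77 to 0.79).

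Within the groups, the 7 genes moved with the replicate number. Replicate 1 was the lowest FC array in 7 of 7 genes in soleus and in 7 of 7 in EDL, by 0.41 and 0.40 below the group mean on average (mean deviations of -0.41 and -0.40). Replicate 2 of BG was below its group mean in 6 genes in soleus and 6 in EDL, with mean deviations of -0.33 and -0.27. Of the 9 pairs of a soleus and an EDL array with the same condition and number, 8 had mean deviations of the same sign. Cebpd had the same sign in 9 of 9 pairs, Klf9 and Tsc22d3 in 5 of 9. What sets these arrays apart was not tested. Leaving out replicate 1 of FC in both muscles, chosen after seeing the data, left 4 genes higher and 1 lower in BF vs. FC in soleus, and 1 gene in EDL, which was Cebpd (1.12, adjusted p = 0.0385). Over all genes the correlation of deviations between arrays of the same condition and number had a median of 0.14 across the muscles, beside -0.07 for different numbers.

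**Figure D4:**
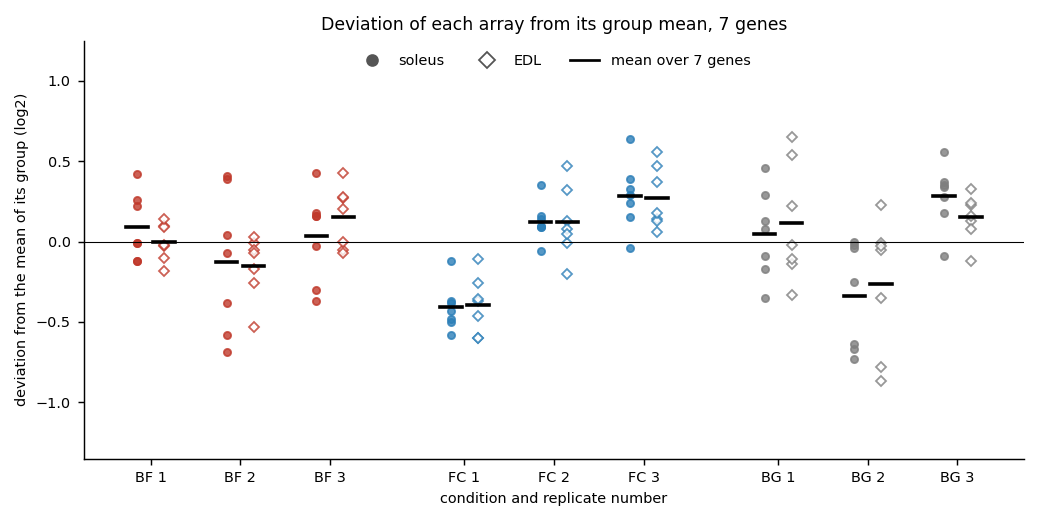
The y axis is the deviation of each of the 7 genes from the mean of its group in log2 units, for each condition and replicate number on the x axis, with soleus as filled circles, EDL as open diamonds and black lines for the mean over the genes. All 7 genes of FC replicate 1 lie below 0 in both muscles.

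As a description over the 18 arrays, after each muscle's mean was subtracted, Mt1 and Mt2 had a Pearson correlation of 0.94, Cebpd had 0.87 with Mt2, 0.84 with Mt1 and 0.87 with Fkbp5, and Fkbp5 had 0.73 with Tsc22d3. Klf9 had -0.61 with Mt2 and -0.12 with Fkbp5. The arrays share the group differences, so these values do not stand apart from the changes above. The search took the 6196 genes with a standard deviation of these centred values above the median, so genes that differ between groups were favoured. Among them the most alike to Cebpd was Cdkn1a, an inhibitor of the cell cycle (0.91), which was also near the top for Mt1 (0.90) and Mt2 (0.90). Gadd45a had 0.92 with Mt2 and Ilf2 0.91 with Mt1. The most alike to Fkbp5 were Cdkal1 (0.90), Npc1 (0.89) and Lcn2 (0.89), and to Cebpd after Cdkn1a the transcripts Snhg1 (0.90) and Art3 (0.89). Tsc22d3 was nearest to Car14 (0.83), Lrig1 (0.80) and Tbx15 (0.79), Sgk1 to Ctsc (0.82), Mocs2 (0.77) and Rictor (0.76), and Klf9 to Rere (0.94), Vcp (0.93) and Hoxc4 (0.93).

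Upstream of these genes, the receptor Nr3c1 itself was not called in BF vs. FC in soleus (0.10 ± 0.16, adjusted p = 0.687) or in BF vs. BG (-0.43 ± 0.16, adjusted p = 0.0611), and was lower in FC than in BG soleus (-0.53 ± 0.16, adjusted p = 0.0393). Hsd11b1, which regenerates active hormone in tissues, was not called in any BF comparison. Of 14 measured genes of the receptor, the hormone enzymes and the chaperones, 4 were called in BF vs. FC in soleus, all higher, and 4 were higher and 2 lower in BF vs. BG, with list medians of 0.14 and 0.36. That is 28.6% and 42.9% called, beside 25.1% and 23.3% of all genes, so the share against FC was near the background. All of that share lay on the higher side, however, where 9.02% of all genes were called. The ordinary contrasts called 2 and 6 of the 14. The HSP40 chaperone Dnajb1 was higher by 2.72 ± 0.63 against FC and 3.10 ± 0.63 against BG (adjusted p = 0.00464 and 0.00244). Its BF soleus arrays stood far apart, at 11.53, 12.40 and 8.23, against 8.15, 7.93 and 7.93 in FC and 7.67, 7.44 and 7.75 in BG. Without BF soleus replicate 1, 2 or 3, a check chosen after seeing the data, its change was 2.31, 1.88 and 3.96 against FC and 2.70, 2.26 and 4.35 against BG, called each time (adjusted p from 1.10e-09 to 0.0254). The groups share 1 spread in these tests, and the SD of Dnajb1 was 2.20 in BF soleus but 0.12 to 0.16 in the others. The adjusted p therefore does not measure the spread of the BF arrays. BF replicate 3, at 8.23, lay close to the highest FC array, at 8.15. Hsp90aa1 was higher against FC (1.77 ± 0.39, adjusted p = 0.00347), as was Hspa1a (2.38 ± 0.80, adjusted p = 0.0383). The call of Hspa1a ended without BF soleus replicate 1 or 2, at 2.04 and 1.95 (adjusted p = 0.125 and 0.131). Replicate 2 was the highest and replicate 3 the lowest BF soleus array of Dnajb1, Hspa1a and Hsp90aa1, and also of Mt1, Mt2 and, narrowly, Sgk1. The others of the 7 genes had another order. Replicate 2 was the lowest BF soleus array of Fkbp5, Tsc22d3 and Klf9, and replicate 3 was the highest of Cebpd and Fkbp5. What sets these arrays apart was not tested. H6pd, which supplies Hsd11b1 with its cofactor, and the corepressor Nrip1 were higher in soleus against BG (0.73 ± 0.16 and 0.90 ± 0.18, adjusted p = 0.00399 and 0.00205). In EDL H6pd and Nrip1 were the 2 called in BF vs. FC, both lower, with -0.71 ± 0.16 and -0.87 ± 0.18 (adjusted p = 0.0198 and 0.0121). That is 14.3% of the list, where 2.52% of all genes were called lower. In BF vs. BG in EDL limma and the ordinary contrasts each called 0 of the 14, 1 of which had an unadjusted p under 0.05.

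Of 29 other genes known to respond to glucocorticoids, 10 were higher and 2 lower in BF vs. FC in soleus, and 7 were called in BF vs. BG, all higher. That is 41.4% and 24.1% called, beside 25.1% and 23.3% of all genes, so the share against BG was near the background, though all of it lay on the higher side, where 11.1% of all genes were called. In EDL 6 were called in BF vs. FC and 4 in BF vs. BG, all higher. That is 20.7% and 13.8%, where 1.02% and 0.266% of all genes were called higher. The median of the 29 was 0.14 in BF vs. FC and 0.15 in BF vs. BG in soleus, and 0.10 and -0.05 in EDL, beside -0.00, 0.03, -0.00 and -0.03 over all genes. This and the other lists were chosen with earlier results of these data known, so their shares are not an independent test. The lipocalin Lcn2 was higher in BF in each of the 4 comparisons, by 2.51 ± 0.46 and 2.07 ± 0.46 in soleus against FC and BG, and by 3.06 ± 0.46 and 2.94 ± 0.46 in EDL (adjusted p = 0.000857, 0.00425, 0.00181 and 0.00848). Sesn1, a stress-induced inhibitor of mTORC1, was higher by 1.23 ± 0.14, 1.08 ± 0.14, 1.77 ± 0.14 and 1.45 ± 0.14 in the same comparisons (adjusted p = 2.65e-05, 0.000109, 1.34e-05 and 0.00014). Eif4ebp1, a repressor of translation, was higher by 1.13 ± 0.17, 1.13 ± 0.17, 0.77 ± 0.17 and 1.20 ± 0.17 (adjusted p = 0.000257, 0.000375, 0.0216 and 0.00501).

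Cdkn1a was higher in BF vs. FC by 2.18 ± 0.34 in soleus and 2.28 ± 0.34 in EDL (adjusted p = 0.000262 and 0.00181), and in BF vs. BG by 1.30 ± 0.34 in soleus (adjusted p = 0.0119). Its value of 1.38 ± 0.34 in BF vs. BG in EDL did not pass (adjusted p = 0.0935). Pik3r1, a regulatory subunit of PI3 kinase, was higher in EDL by 1.50 ± 0.29 against FC and 1.69 ± 0.29 against BG (adjusted p = 0.00987 and 0.0221). In soleus it was higher against FC by 0.93 ± 0.29 and had 0.62 ± 0.29 against BG (adjusted p = 0.0296 and 0.139). Pdk4, which turns off pyruvate dehydrogenase, was higher against FC by 0.88 ± 0.18 in soleus and 1.20 ± 0.18 in EDL (adjusted p = 0.00205 and 0.00191), had -0.38 ± 0.18 against BG in soleus (adjusted p = 0.135), and was lower in FC than in BG soleus (-1.27 ± 0.18, adjusted p = 0.000875). Angptl4 was higher in soleus against FC (1.70 ± 0.45, adjusted p = 0.0111), and Gadd45g and Glul were higher against BG (1.14 ± 0.40 and 0.82 ± 0.18, adjusted p = 0.0469 and 0.00389). Glul was also higher in soleus against FC (0.61 ± 0.18, adjusted p = 0.0202). Other well known targets were not called higher. Per1 had -0.04 ± 0.31 and 0.54 ± 0.31 in soleus against FC and BG (adjusted p = 0.943 and 0.221), and Klf15 had -0.51 ± 0.25 and -0.61 ± 0.25 (adjusted p = 0.159 and 0.0936). Zbtb16 and Foxo3 were lower in BF vs. FC in soleus (-0.68 ± 0.21 and -0.63 ± 0.18, adjusted p = 0.0243 and 0.0181).

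**Figure D5:**
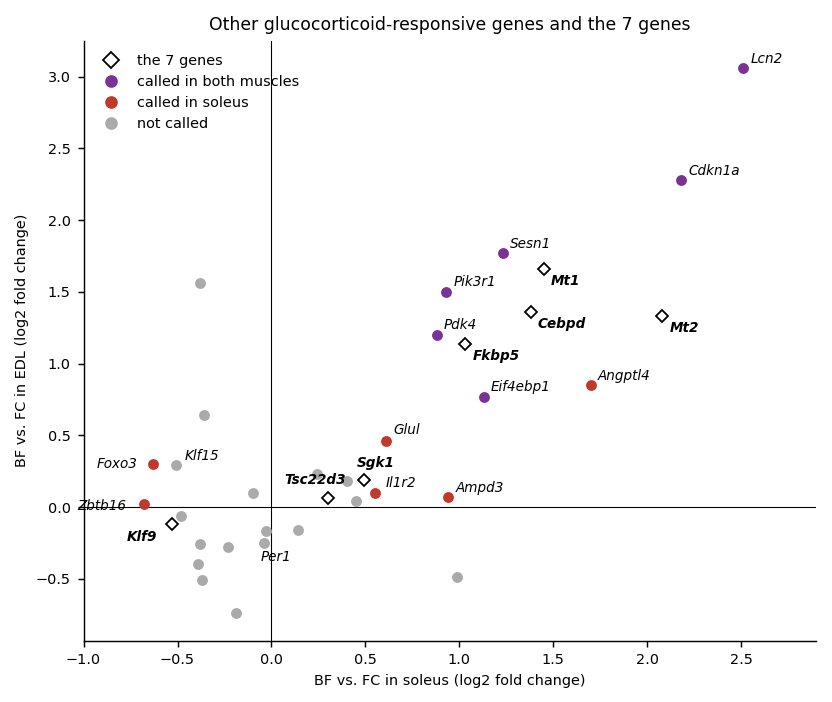
The x axis is the log2 fold change of BF vs. FC in soleus and the y axis the same in EDL, for 29 other glucocorticoid-responsive genes (circles) and the 7 genes (diamonds). Colours mark genes with an adjusted p under 0.05 in both muscles or in soleus. Lcn2, Cdkn1a and Sesn1 lie at the upper right beyond Mt1 and Cebpd in EDL, and Klf9 lies on the left with Foxo3 and Zbtb16.

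On the metal side, Mtf1, the zinc sensor that acts on metallothionein genes, was lower in BF soleus, with -0.69 ± 0.15 against FC and -0.43 ± 0.15 against BG (adjusted p = 0.00297 and 0.0471). Slc30a1, a zinc exporter also known as an Mtf1 target, had -0.24 ± 0.17 and 0.07 ± 0.17 (adjusted p = 0.359 and 0.809). Of 24 measured genes of zinc and copper transport and the metal response, 4 were higher and 5 lower in BF vs. FC in soleus, and 3 higher and 5 lower in BF vs. BG, with list medians of 0.22 and 0.09. The shares called were 37.5% and 33.3%, in both directions, beside 25.1% and 23.3% of all genes. The importer Slc39a14 (ZIP14) was higher in all 4 BF comparisons, by 1.09 ± 0.19 and 0.76 ± 0.19 in soleus against FC and BG and by 0.86 ± 0.19 and 1.05 ± 0.19 in EDL (adjusted p = 0.000546, 0.00852, 0.0168 and 0.0221). It was the only gene of the list called higher in EDL. The copper importer Slc31a1 was lower in soleus, with -0.74 ± 0.14 against FC and -0.90 ± 0.14 against BG (adjusted p = 0.0014 and 0.000442), and in EDL against FC (-0.67 ± 0.14, adjusted p = 0.0158). The zinc importers Slc39a1 and Slc39a3 were lower in soleus against FC (-0.65 ± 0.13 and -0.72 ± 0.12, adjusted p = 0.00126 and 0.000426), and Mt3, another metallothionein, was higher in soleus against BG (0.67 ± 0.17, adjusted p = 0.00846).

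Around Cebpd, 19 genes of the C/EBP factors and of the IL-6 and acute phase response were measured. In soleus 6 were called in BF vs. FC, all higher, and 9 were higher and 1 lower in BF vs. BG, with list medians of 0.12 and 0.46. The shares called were 31.6% and 52.6%, beside 25.1% and 23.3% of all genes. All of the 31.6% against FC lay on the higher side, where 9.02% of all genes were called. Orm1 and Hp, plasma acute phase proteins that fat cells also make, were higher by 2.29 ± 0.36 and 1.59 ± 0.45 against FC and by 2.48 ± 0.36 and 2.41 ± 0.45 against BG (adjusted p = 0.00032, 0.017, 0.000245 and 0.0015). Cebpa was higher (0.75 ± 0.25 and 1.32 ± 0.25, adjusted p = 0.04 and 0.00172), and Cebpb was lower against BG (-0.95 ± 0.23, adjusted p = 0.00717). Serpina3n was higher in both muscles against FC (1.26 ± 0.22 in soleus and 0.94 ± 0.22 in EDL, adjusted p = 0.000724 and 0.026) and against BG (0.95 ± 0.22 and 1.14 ± 0.22, adjusted p = 0.00655 and 0.0347). In EDL Il6ra was higher against BG (1.20 ± 0.23, adjusted p = 0.0333), and the receptor subunit Lifr (-0.80 ± 0.21, adjusted p = 0.0451) and the kinase Jak2 (adjusted p = 0.00165) were lower against FC.

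Among 21 relatives of the 7 genes, 4 were higher and 6 lower in BF vs. FC in soleus, and 4 higher and 2 lower in BF vs. BG, with list medians of -0.14 and 0.11. The shares called were 47.6% and 28.6%, beside 25.1% and 23.3% of all genes, so the share against BG was near the background. The Krueppel-like factors Klf5, Klf6 and Klf10 were higher against FC (1.69 ± 0.30, 1.47 ± 0.20 and 1.17 ± 0.28, adjusted p = 0.000797, 9.61e-05 and 0.00579), and Klf13 was lower (-0.66 ± 0.14, adjusted p = 0.00222). Nedd4l, a target of Sgk1, was higher by 0.52 ± 0.16 against FC and by 1.17 ± 0.16 against BG (adjusted p = 0.0265 and 0.000136), and Tsc22d4 was lower against both (-1.05 ± 0.15 against FC and -0.67 ± 0.15 against BG, adjusted p = 0.000109 and 0.00416). In EDL the kinase Sgk3 was higher (0.57 ± 0.12 against FC and 0.58 ± 0.12 against BG, adjusted p = 0.0148 and 0.0434). Of 17 clock genes, 5 were higher and 6 lower in BF vs. FC in soleus and 2 higher and 1 lower in BF vs. BG, with list medians of -0.04 and 0.09. The shares called were 64.7% and 17.6%, beside 25.1% and 23.3% of all genes. Arntl was higher by 2.56 ± 0.33 and Dbp lower, at -3.81 ± 0.51, against FC (adjusted p = 6.14e-05 and 8.90e-05). The controls also differed, with 4 clock genes higher and 2 lower in FC vs. BG in soleus, Arntl at -1.90 ± 0.33 and Dbp at 1.87 ± 0.51 (adjusted p = 0.00234 and 0.0277). That is 35.3% called, beside 9.8% of all genes. Corticosterone and the clock both follow the time of day, and the time of sampling was not tested.

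The muscles are mixtures of cells, so more cells of a type and more RNA per cell cannot be told apart. The labels of the muscles held: all 7 slow fibre markers were higher in FC soleus than in FC EDL, and Myh7, the slow myosin heavy chain, averaged 13.91 in FC soleus and 9.37 in FC EDL. Markers of some other cell types moved with BF in soleus. Of 8 adipocyte markers, 4 were higher in BF vs. FC and 6 in BF vs. BG, or 50% and 75%, where 9.02% and 11.1% of all genes were. The list's mean signal ran from 9.18 to 10.32 over BF arrays, 8.56 to 8.66 over FC and 8.17 to 8.52 over BG. Adipoq averaged 11.13 in BF soleus, 9.86 in FC and 8.80 in BG. Cebpd, Cebpa, Orm1, Hp and Mt2 are also made by fat cells. In EDL limma and the ordinary contrasts called 0 of the 8 in either BF comparison, with an unadjusted p under 0.05 for 2 against BG and 0 against FC. The list means in EDL were 7.78 to 8.32 in BF, 7.80 to 8.53 in FC and 7.33 to 7.65 in BG. Adipoq in EDL had 1.87 ± 0.42 in BF vs. BG and -0.38 ± 0.42 in BF vs. FC (limma, adjusted p = 0.067 and 0.716). It had 2.25 ± 0.42 in FC vs. BG there (adjusted p = 0.0605). Neutrophil markers were at 5.06 to 5.16 in BF soleus, against 4.69 to 4.88 in FC and 4.74 to 4.84 in BG, and at 5.10 to 5.44 in BF EDL, against 4.70 to 4.96 in FC and 4.85 to 4.98 in BG. All these means are below the array medians of 6.17 to 6.26. Of 9 neutrophil markers, 2 were called in BF vs. FC and 1 in BF vs. BG in soleus, all higher. That is 22.2% and 11.1% called, beside 25.1% and 23.3% of all genes. On the higher side alone the shares of all genes were 9.02% and 11.1%. In EDL 1 was higher against FC, or 11.1%, where 3.53% of all genes were called and 1.02% were higher, and 0 were called against BG. S100a8, a defining marker of neutrophils, averaged 5.62 in BF soleus, 4.45 in FC and 4.55 in BG, and 5.88 in BF EDL, 4.12 in FC and 4.39 in BG. It was higher in soleus by 1.17 ± 0.33 against FC and 1.07 ± 0.33 against BG (adjusted p = 0.0157 and 0.027), and in EDL by 1.77 ± 0.33 against FC (adjusted p = 0.007), with 1.49 ± 0.33 against BG (adjusted p = 0.0601). Macrophage markers were at 6.93 to 7.64 in BF soleus, against 6.78 to 6.96 in FC and 6.52 to 6.67 in BG. Of the 10 markers 2 were higher and 1 lower in BF vs. FC in soleus and 2 higher in BF vs. BG. That is 30% and 20% called, near the 25.1% and 23.3% of all genes. The 20% against BG lay on the higher side, where 11.1% of all genes were called. Cd68 and Fcgr1 are named here after their values were seen. Cd68, a lysosomal protein of macrophages, had 9.80, 10.90 and 8.38 in BF soleus, against 6.48, 6.33 and 5.95 in FC and 6.09, 6.17 and 6.62 in BG, a change of 3.44 ± 0.39 against FC and 3.40 ± 0.39 against BG (adjusted p = 2.54e-05 and 3.57e-05). Its SD was 1.26 in BF soleus but 0.21 to 0.28 in the other groups, which share 1 spread with it in the test. In EDL it had 0.04 ± 0.39 and 0.34 ± 0.39 (adjusted p = 0.976 and 0.8). Fcgr1 was higher in soleus by 0.64 ± 0.19 against FC and 0.61 ± 0.19 against BG (adjusted p = 0.021 and 0.0295), and Csf1r was the one lower against FC (-0.80 ± 0.22, adjusted p = 0.0121). Fast fibre markers were higher in 4 of 9 in BF vs. FC in soleus, where 9.02% of all genes were, with Myh4 at 13.78 in BF, 9.77 in FC and 9.51 in BG. The mean of the 7 slow fibre markers was 12.97 to 13.44 over BF soleus arrays, below 13.85 to 13.89 in FC and 13.87 to 13.90 in BG. Limma and the ordinary contrasts called 0 of the 7 against either control in soleus, with an unadjusted p under 0.05 for 0. These tests share 1 spread between the muscles, and for these genes it came mainly from EDL. Myh7 had SDs of 0.25, 0.03 and 0.03 in BF, FC and BG soleus, but 2.14, 2.23 and 1.37 in EDL, and a standard error of 0.95. The count of 0 therefore cannot decide whether slow fibre markers fell in soleus. In EDL the mean of the slow fibre markers spread from 8.48 to 9.97 in BF, 7.29 to 10.86 in FC and 8.81 to 10.86 in BG. In BF vs. FC in soleus 6 of 10 endothelial markers and 4 of 10 fibroblast and tendon markers were lower, where 16% of all genes were. In that soleus comparison Vwf and Kdr had -1.84 ± 0.22 and -1.13 ± 0.18 (adjusted p = 3.90e-05 and 0.000326), while Pecam1 had 0.01 ± 0.16 (adjusted p = 0.983). The part of these cell types in the changes of the 7 genes was not tested.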

How the data were processed

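RNA of each muscle (100 ng) was hybridised to Affymetrix Mouse Genome 430A 2.0 arrays. The deposited values are RMA log2 signals, computed by the authors with Partek Genomics Suite 6.6 through background correction, quantile normalization and median polish over the 18 arrays, so differences between whole arrays in total signal are removed. The table holds 22690 probe sets, of which 64 controls were left out. Array medians ran from 6.17 to 6.26, and correlations between arrays of a group from 0.978 to 0.995. Platform annotation names 1 gene for 20393 probe sets, several for 691 and none for 1606. Among probe sets naming a gene alone, the brightest on average stands for the gene.

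A linear model with a mean for each of 6 groups was fitted with limma 3.58.1 in R 4.3.3 (empirical Bayes, 12 residual and 5.1 prior degrees of freedom), and p-values were adjusted by Benjamini and Hochberg over 22626 probe sets. The script was tested on simulated data. Arrays of a group are taken as separate mice, and the number of arrays limits the precision. Alternatives were ordinary contrasts of the one-way model, each muscle alone, array quality weights, robust trended moderation, a filter on low signals, the mean of a gene's probe sets, 2 rescalings, the replicate number as a block, the methods' thresholds and leaving out each array.

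The 7 genes and the lists (210 entries, 17 of them not analysed here) were chosen with earlier results of these data known. Named are the 7 genes, 6 genes of the receptor and metal response taken whatever their values (Nr3c1, Hsd11b1, Mtf1, Slc30a1, Per1 and Klf15), up to 4 called genes with the largest change in each list and BF comparison, 6 cell type markers, and for each of the 7 genes the 3 genes with the most similar pattern. Some genes outside this rule are named too, among them Cd68, Fcgr1, Vwf, Kdr, Zbtb16 and Foxo3. Descriptions of BF EDL arrays 2 and 3 name another mission than their source field, which was taken as a slip. Promoter windows are from RefSeq tables (GRCm38.p6). Figures were drawn with matplotlib 3.10.9 in Python 3.11.15.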

Additional observations from a re-analysis of the deposited data

Results flagged for a closer look

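Klf9 was flagged for a difference between the muscles at the level of single probe sets. The BF vs. BG change of 1422264_s_at was -0.95 in soleus and 0.46 in EDL, a difference of -1.41 ± 0.32 (limma, adjusted p = 0.0155). That of 1436763_a_at was -0.76 in soleus and 0.19 in EDL, a difference of -0.95 ± 0.27 (adjusted p = 0.0378). For 1452723_at every BF array was above every BG array in soleus and below every BG array in EDL, with 0.36 and -0.11 and a difference of 0.47 ± 0.15, which did not pass (adjusted p = 0.0622), at a mean signal of 4.79, percentile 27.8 of all probe sets. The brightest probe set of Klf9 had a difference of -0.10 ± 0.21 (adjusted p = 0.788). Which transcripts these probe sets read was not tested.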

How the results depend on the processing

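Counts of called genes among the 7 were 3 in BF vs. BG and 5 in BF vs. FC in soleus, and 0 and 3 in EDL. With the methods' thresholds FC vs. BG in EDL had 1 called gene. Ordinary contrasts gave 1 in BF vs. FC in EDL. Array quality weights gave 2 in FC vs. BG in soleus and 1 each in FC vs. BG and BF vs. BG in EDL. Leaving out replicate 1 of FC in both muscles, chosen after seeing the data, gave 1 in BF vs. FC in EDL. Leaving out each array in turn gave 2 to 3 called genes in BF vs. BG and 4 to 6 in BF vs. FC in soleus, 0 to 4 in BF vs. FC in EDL, 0 to 1 in FC vs. BG in soleus and 1 to 2 in soleus vs. EDL in FC, and 0 throughout in the other comparisons. The count of 0 in BF vs. FC in EDL was found without BF EDL replicate 3. The cause was not tested. Of the 375 values that the 13 called results of single genes had under an alternative, 352 kept the call and 23 lost it, with no change of sign, and of the 1431 values of the 50 results not called 16 gained it. Leaving out an array that is not in a comparison keeps its fold change and alters only the shared spread. Many of the kept calls are therefore a weak check. With array medians centred, or quantile normalization repeated within each muscle, the median of all genes stayed within 0.05 of 0.

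The criterion for pairing, a correlation of deviations above 0.1 for every pair of equal replicate numbers, was not met within a muscle (-0.13 to 0.30) or across the muscles (-0.05 to 0.37), though 6 of the 9 pairs across the muscles were above 0.1, among them all 3 of FC, at 0.37, 0.16 and 0.20. With the replicate block within the muscle the counts were again 3, 5, 0 and 3, and with the block across the muscles, chosen after seeing the data, 3, 5, 0 and 3. Signal on 3 arrays for each group limits what can be told apart: a standard error of 0.37, as for Mt1, gives a 95% interval of 0.68 to 2.22 around 1.45.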
